A study of Sus scrofa with 12 samples.

Results

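The glycerol phosphate shuttle and the malate aspartate shuttle carry the electrons of cytosolic NADH into mitochondria, whose inner membrane does not let NADH itself pass. The 6 enzymes that run them were followed through the first weeks of life in pig skeletal muscle: GPD1 and GPD2 of the glycerol phosphate shuttle, and MDH1, MDH2, GOT1 and GOT2 of the malate aspartate shuttle. They are 6 of the 6765 genes that the array's annotation names by a single symbol, and they were measured by 8 probe sets, 3 of them for GPD2 and 1 for each of the others. The group was chosen by enzyme function around GPD1, and GPD1 was selected on its strong rise after birth in these same arrays, so its difference from day 0 is given as a description without a test. The other 5 enzymes were tested.

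In the glycerol phosphate shuttle, the cytosolic enzyme encoded by GPD1 uses NADH to reduce dihydroxyacetone phosphate to glycerol 3-phosphate, and the inner-membrane enzyme encoded by GPD2 oxidizes it again and hands the electrons to ubiquinone. In the malate aspartate shuttle, cytosolic malate dehydrogenase (MDH1) makes malate with NADH, mitochondrial malate dehydrogenase (MDH2) turns it back to oxaloacetate, and the cytosolic and mitochondrial aspartate aminotransferases (GOT1 and GOT2) return the carbon as aspartate. Both shuttles regenerate the cytosolic NAD+ that glycolysis needs, the glycerol phosphate route is known as prominent in fast glycolytic fibres, and glycerol 3-phosphate is also the backbone of triglycerides.

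Skeletal muscle was collected from pigs within 24 hours of birth (day 0) and at 7, 14 and 21 days of age, with 3 biological replicates at each age. Total RNA of each of the 12 samples was hybridized to its own Affymetrix porcine array. No treatment or genotype distinguished the groups, and the labels name neither the breed nor the muscle. Nor do the labels say that the replicates were separate animals, so p-values measure only the spread between these samples.

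Signals had been scaled by the submitters so that each array's trimmed mean was 500.1, and 14399 of 23999 probe sets were bright enough to be tested. Replicates correlated less at day 0 (r = 0.912 to 0.929 over probe sets) than at the later ages (0.937 to 0.954). Between day 21 and day 0, 952 probe sets were higher and 705 lower at an adjusted p under 0.05. The split was 739 higher and 1032 lower with arrays centred on their median, and 397 higher and 2484 lower with arrays scaled on the hybridization spikes, where the median difference of all probe sets was -0.36 on the log2 scale, against 0.02 on the deposited scale. The spikes were 0.35 higher at the later ages than at day 0 (log2; exact permutation test, two-sided, p = 0.00455, the smallest possible with 9 against 3 arrays). The 3′ to 5′ ratio of the poly-A spikes, a measure of labelling, was 0.51 ± 0.10 at the later ages and 0.98 ± 0.53 at day 0 (log2, SD, n = 9 and 3; exact two-sided p = 0.00909). Day 0 replicate 2 stood apart at 1.59, and the difference was -0.47 with it and -0.17 without it. The ribosomal RNA control probe sets moved with age too: 28S signal was 0.98 higher at the later ages than at day 0 (log2; exact two-sided p = 0.00455, the smallest possible) and 18S was 0.50 higher (exact two-sided p = 0.0591), or 1.18 and 0.85 higher without day 0 replicate 2. The part of ribosomal RNA in the results was not tested, and the spike scale and the poly-A covariate are given beside the members they move.

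GPD1 signal was several-fold higher at every later age than at day 0. In the order of the replicates, it was 1067, 1118 and 4640 at day 0, 10038, 10059 and 8067 at day 7, 7365, 11123 and 10470 at day 14, and 14675, 10716 and 13640 at day 21. The means were 2275 ± 2048, 9388 ± 1144, 9652 ± 2008 and 13011 ± 2053 at days 0, 7, 14 and 21 (SD, n = 3 each). Every later array lay above every day 0 array, and the first 2 day 0 replicates lay close together while replicate 3 was several times brighter.

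On the log2 scale, GPD1 was 2.40 higher at day 7 than at day 0 (5.28-fold), 2.43 higher at day 14 (5.37-fold) and 2.87 higher at day 21 (7.29-fold). Day 0 replicate 3 decided much of the size: without it the differences were 3.10, 3.12 and 3.56 (8.55-, 8.70- and 11.8-fold), and against that array alone they were 1.01, 1.03 and 1.47. On the scale of the hybridization spikes they were 2.09, 2.06 and 2.49, and with the poly-A ratio as a covariate they were lowest, at 1.79, 1.87 and 2.45. In bulk tissue, fewer cells of a type and less RNA per cell cannot be told apart, so these values do not say whether more fibres expressed GPD1 or each fibre expressed more.

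**Figure D1:**
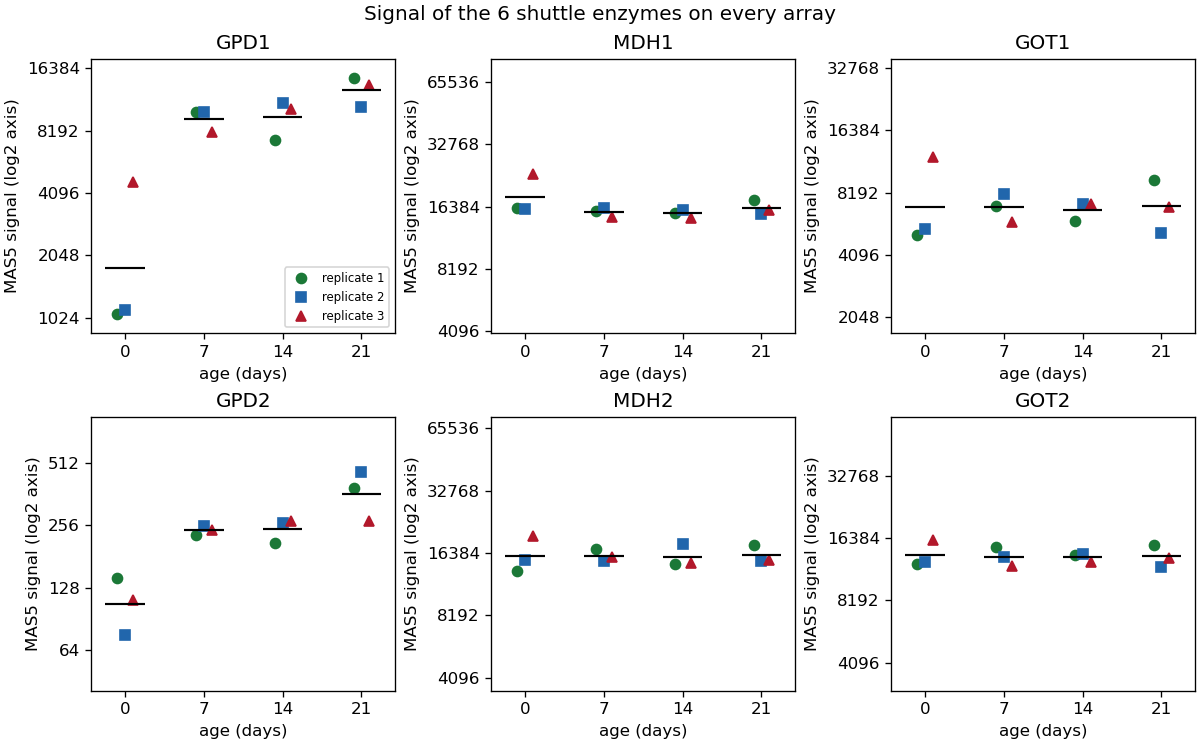
Signal of the 6 shuttle enzymes (log axis, scaled MAS5 signal) on each of the 12 arrays at days 0, 7, 14 and 21 after birth. Each point is 1 array and each short line marks the mean log2 signal of an age. GPD1 and GPD2 sit lowest at day 0, while the 4 malate aspartate enzymes stay level apart from a bright day 0 replicate 3, where GOT1 reached 12206.

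GPD2 rose with age on its brightest probe set. Its signals were 142.5, 75.7 and 112.1 at day 0, 230.6, 255.2 and 241.8 at day 7, 209.4, 262.7 and 269.1 at day 14, and 388.5, 461.3 and 267.7 at day 21. All 9 later arrays were above all 3 day 0 arrays. Of all tested probe sets, 28.5%, 29.5% and 29.1% separated day 0 from days 7, 14 and 21, each age taken alone and in either direction. The means were 110.1 ± 33.4, 242.5 ± 12.3, 247.1 ± 32.8 and 372.5 ± 97.8 in order of age (SD, n = 3 each).

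GPD2 was 1.19 ± 0.28 higher at day 7 than at day 0 (log2 ± SE, 2.27-fold, limma adjusted p = 0.0210) and 1.20 ± 0.28 higher at day 14 (2.30-fold, adjusted p = 0.0151). At day 21 it was 1.77 ± 0.28 higher (3.41-fold, 95% interval 2.25 to 5.17, adjusted p = 0.00237). GPD2 was thus the 1 called member of the 5 tested at each later age, all upward. Over all tested probe sets, 5.76%, 6.74% and 6.61% were higher and 3.64%, 5.6% and 4.9% lower at days 7, 14 and 21 than at day 0 (9.4%, 12.3% and 11.5% in either direction).

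The day 21 call for GPD2 held under all 23 alternatives that kept the probe set, with a log2 difference of 1.36 to 1.99 and adjusted p between 0.00219 and 0.0282. The earlier calls were less stable. At day 7 the call was lost on the spike scale (0.88, adjusted p = 0.0864), with the poly-A ratio as a covariate (0.72, adjusted p = 0.276), with the mean of its probe sets (0.75, adjusted p = 0.0919), with only the arrays compared (adjusted p = 0.0739), and without day 0 replicate 2 (0.94, adjusted p = 0.0668) or any 1 of the 3 day 7 replicates (adjusted p = 0.0588 to 0.0725). At day 14 it was lost on the spike scale (0.84, adjusted p = 0.0845), with the poly-A covariate (0.78, adjusted p = 0.175), with only the arrays compared (adjusted p = 0.0722), and without day 14 replicate 2 or 3 (adjusted p = 0.0506 and 0.0570).

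The other 2 GPD2 probe sets did not pass the test. The second one had signals of 255.5, 196.2 and 224.4 at day 21 and 100.4, 115.2 and 135.5 at day 0. These do not overlap, as for 29.1% of all tested probe sets. For this second probe set the log2 difference from day 0 was 0.31 ± 0.39 at day 7 (adjusted p = 0.669), where replicate 3 was low at 70.1. It was 0.70 ± 0.39 at day 14 (adjusted p = 0.259) and 0.95 ± 0.39 at day 21 (adjusted p = 0.134). The third was dim, with signals of 31.0 to 187.9 over the 12 arrays, and fell below the brightness limit of 90.3. Tested without that limit, it was 1.35 ± 0.46 higher at day 21 (adjusted p = 0.104). All 3 probe sets had positive differences at day 21.

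**Figure D2:**
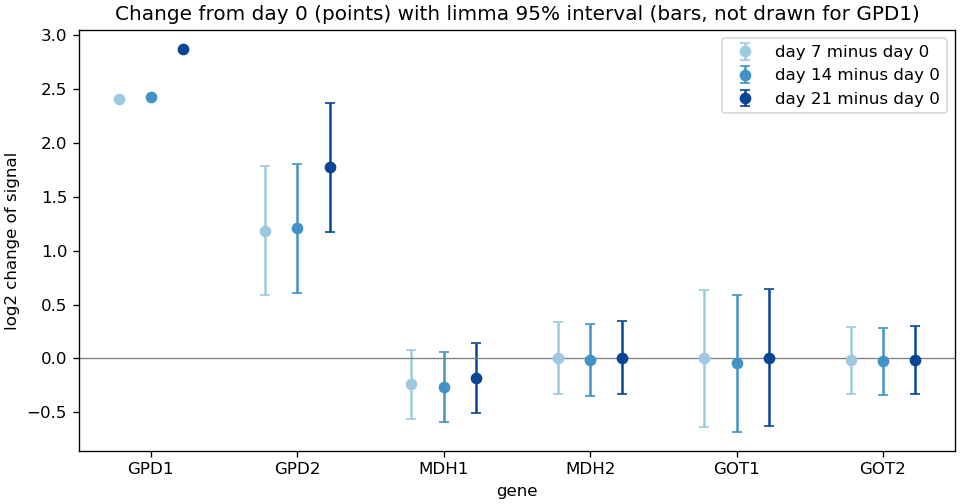
Log2 difference of each shuttle enzyme at days 7, 14 and 21 from day 0, from limma over 12 arrays; bars are 95% intervals and GPD1, chosen for its rise, is drawn without them. GPD1 and GPD2 lie above 0 at all 3 ages, and the intervals of MDH1, MDH2, GOT1 and GOT2 all include 0.

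None of the 4 malate aspartate enzymes passed the test at any later age. MDH1 had signals of 16229, 15918 and 23488 at day 0, 15610, 16148 and 14615 at day 7, 15280, 15870 and 14478 at day 14, and 17591, 15055 and 15774 at day 21. The bright replicate 3 apart, the day 0 signals lay within the later range. The log2 differences from day 0 were -0.24 ± 0.15 at day 7 (95% interval -0.56 to 0.08, adjusted p = 0.340), -0.26 ± 0.15 at day 14 (-0.58 to 0.06, adjusted p = 0.270) and -0.18 ± 0.15 at day 21 (-0.50 to 0.14, adjusted p = 0.474).

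At day 14 all 3 MDH1 signals were under the 3 day 0 signals, though the nearest pair was 15870 at day 14 and 15918 at day 0. Of all tested probe sets, 29.5% separated these ages in either direction. Without day 0 replicate 3 the MDH1 differences were -0.06, -0.08 and 0.00 at days 7, 14 and 21. MDH1 passed the test as lower on the spike scale at all 3 ages (-0.55, -0.63 and -0.56 at days 7, 14 and 21, adjusted p = 0.0317, 0.0122 and 0.0222, where the median probe set was at -0.31, -0.35 and -0.36) and with quantile normalization at day 14 (-0.38, adjusted p = 0.0401). These were the 4 calls among 288 tests of the 4 enzymes under the alternatives.

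MDH2, the mitochondrial partner of MDH1 and an enzyme of the citric acid cycle, had signals of 17803, 14968 and 15222 at day 21 and 13390, 15089 and 19773 at day 0. Its means were 16084 ± 3306, 15922 ± 1070, 15775 ± 2003 and 15998 ± 1568 at days 0, 7, 14 and 21 (SD, n = 3 each). The difference at day 21 was 0.01 ± 0.16 (95% interval -0.33 to 0.34, adjusted p = 0.982), and the ages overlapped throughout.

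GOT1, the cytosolic aminotransferase, had signals of 9456, 5234 and 6994 at day 21 and 5092, 5469 and 12206 at day 0. Its means were 7589 ± 4003, 7034 ± 1079, 6795 ± 684 and 7228 ± 2120 at days 0, 7, 14 and 21 (SD, n = 3 each). The difference at day 21 was 0.01 ± 0.29 (95% interval -0.62 to 0.64, adjusted p = 0.989), the widest interval of the 4. Without day 0 replicate 3 the difference was 0.40 at day 7, 0.36 at day 14 and 0.41 at day 21, still short of the threshold (adjusted p = 0.256, 0.299 and 0.235).

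GOT2, its mitochondrial partner, had signals of 15195, 11867 and 13160 at day 21 and 12217, 12561 and 15974 at day 0. Its means were 13584 ± 2077, 13374 ± 1467, 13255 ± 650 and 13407 ± 1678 at days 0, 7, 14 and 21 (SD, n = 3 each). The difference at day 21 was -0.02 ± 0.15 (95% interval -0.33 to 0.30, adjusted p = 0.959).

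Day 0 replicate 3 was brighter than the mean of the other day 0 arrays for all 6 enzymes, by unequal amounts. On the log2 scale the excess was 2.09 for GPD1 (4.25-fold, above 99.5% of tested probe sets) and 1.21 for GOT1 (2.31-fold, above 96.6%). It was 0.55 for MDH1 (above 83%), 0.48 for MDH2 (80%), 0.37 for GOT2 (75%) and 0.11 for GPD2 (57%). The median probe set had 0.02. The GPD2 signal of 112.1 on this array lay between the 142.5 and 75.7 of the other day 0 arrays. LDHA, discussed with the linked genes, had 33655 on this array and 14088 and 13878 on the other day 0 arrays. What sets this sample apart was not tested.

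The cytosolic and mitochondrial partners were also compared as ratios within each array, which a scaling factor per array cannot move. Since the 2 enzymes of a ratio come from different probe sets, only its change with age can be read. The log2 ratio of MDH1 to MDH2 was -0.02 ± 0.10 on the 9 later arrays, ranging from -0.19 to 0.11, and 0.20 ± 0.11 at day 0, where the 3 arrays had 0.28, 0.08 and 0.25 (SD). The later ratio was thus lower by 0.23 (exact two-sided permutation test, p = 0.0136, adjusted over 2 ratios p = 0.0273), although the ranges overlapped. It was -0.19 without day 0 replicate 1 (exact p = 0.0727) and -0.20 without day 0 replicate 3 (exact p = 0.0545), where 0.0182 is the smallest p possible.

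The log2 ratio of GOT1 to GOT2 averaged -0.94 ± 0.18 on the 9 later arrays and -0.95 ± 0.49 on the 3 day 0 arrays (SD), a difference of 0.01 (exact two-sided permutation test, p = 0.968, also after adjustment). Day 0 replicate 3 had a ratio of -0.39, against -1.26 and -1.20 on the other day 0 arrays, and without it the difference was 0.29 (exact p = 0.0545). The log2 ratio of GPD1 to GPD2, given as a description, lay between 4.54 and 5.67 on the later arrays and was 2.90, 3.88 and 5.37 at day 0.

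**Figure D3:**
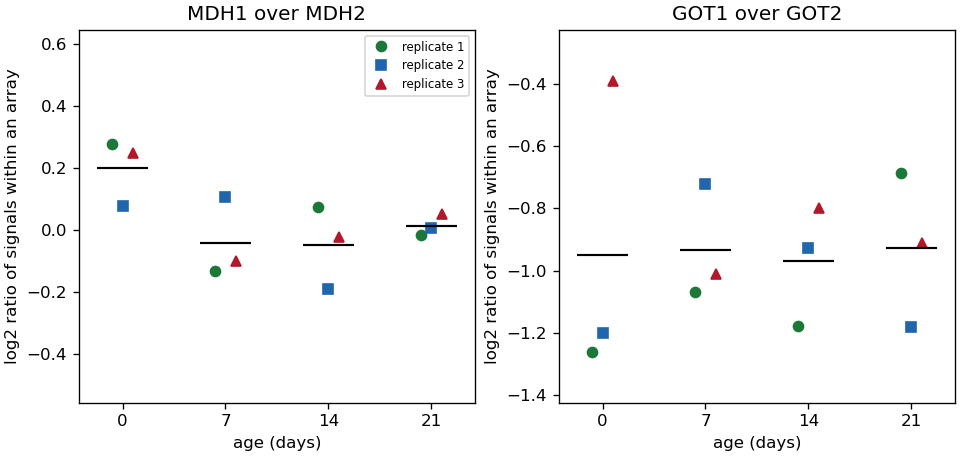
Log2 ratio of the cytosolic to the mitochondrial enzyme within each array, for MDH1 to MDH2 and GOT1 to GOT2, by day after birth. Each point is 1 array and each short line marks the mean of an age. The MDH ratio of the later arrays averages 0.23 under day 0, and the GOT ratio does not shift beyond its spread.

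After the first week none of the 5 tested enzymes passed the test. An F test among days 7, 14 and 21 gave adjusted p = 0.962 for GPD2 and at least 0.9996 for the other 4 tested enzymes, and it called 0.00694% of all tested probe sets (1 of 14399, with 767 at an unadjusted p under 0.05). GPD1, given as a description because its rise chose it, was 0.02 higher at day 14 than at day 7 on the log2 scale, with overlapping arrays.

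GPD1 and GPD2 were both highest at day 21. The day 21 signals of GPD1 did not overlap those of day 7 but overlapped those of day 14, and its differences were 0.47 from day 7 and 0.44 from day 14. For GPD2 the differences were 0.58 ± 0.28 from day 7 (adjusted p = 0.760, groups apart) and 0.57 ± 0.28 from day 14 (adjusted p = 0.9998, groups overlapping), while day 14 and day 7 differed by 0.02 (adjusted p = 0.998). Across all probe sets the groups were apart for 16.1% between days 21 and 7, 8.44% between days 21 and 14 and 14.1% between days 14 and 7, with 1, 0 and 1 called by the adjusted p (0.00694%, 0% and 0.00694%). In order of level, then, GPD1 and GPD2 had day 0 lowest, days 7 and 14 overlapping, and day 21 highest while overlapping day 14.

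Genes that feed, carry or drain the shuttles were chosen by function, but with earlier results of these data known. Their counts beside the shares of all probe sets are thus a description. Of 38 such genes, 31 had a probe set with their symbol and 30 were bright enough to test. At day 7, 5 were higher than at day 0 and 1 lower (median log2 difference -0.03), and at day 14, 4 were higher and 1 lower (median 0.08). At day 21, 5 were higher and none lower, with a median of 0.10 over the 30 and 0.02 over all probe sets. Over all tested probe sets, 5.76%, 6.74% and 6.61% were higher and 3.64%, 5.6% and 4.9% lower at these ages.

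The 5 genes that rose by day 21 belong to different steps. UCP3, a mitochondrial uncoupling protein of muscle, had signals of 1295, 621.6 and 1256 at day 21 and 309.1, 355.7 and 250.6 at day 0 (log2 difference 1.73 ± 0.25, adjusted p = 0.00159), though a second UCP3 probe set differed by 0.59 ± 0.25 (adjusted p = 0.141). PC, the pyruvate carboxylase that makes oxaloacetate, had 419.3, 334.7 and 351.5 at day 21 and 138.7, 63.6 and 174.8 at day 0 (1.67 ± 0.34, adjusted p = 0.00816). TPI1, the triose phosphate isomerase that supplies or removes the dihydroxyacetone phosphate on which GPD1 acts, had 28065, 34011 and 43053 at day 21 and 10784, 9112 and 20156 at day 0 (1.46 ± 0.25, adjusted p = 0.00342). For these 3 genes no day 21 array overlapped day 0, as for 29.1% of all tested probe sets.

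LDHA, whose lactate dehydrogenase subunit competes with the shuttles for cytosolic NADH, had signals of 47006, 50352 and 62224 at day 21 and 14088, 13878 and 33655 at day 0. It was 1.49 ± 0.27 higher at day 21 (adjusted p = 0.00440). LDHB, the subunit abundant in heart and oxidative muscle, had 13401, 14061 and 10779 at day 21 and 10018, 12509 and 15861 at day 0, a difference of 0.01 ± 0.21 (adjusted p = 0.981). SLC16A3, the lactate exporter of glycolytic muscle, was 1.07 ± 0.30 higher (adjusted p = 0.0361). Its call was lost on the median-centred and spike scales, without the variance trend, with array weights, with the poly-A covariate, with only the arrays compared, and without day 0 replicate 1 or 2, day 7 replicate 2 or day 21 replicate 1 or 3.

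The carriers of the malate aspartate shuttle did not pass the test. SLC25A11, the malate and 2-oxoglutarate exchanger, had signals of 2953, 2422 and 2616 at day 21 and 2558, 4236 and 7019 at day 0, with a log2 difference of -0.67 ± 0.27 (adjusted p = 0.129). The day 0 replicates of this gene spread widely and the lowest lay within the day 21 range, and SLC25A11 passed as lower on the spike scale and without day 0 replicate 1. SLC25A12, the aspartate and glutamate exchanger that muscle uses, differed by 0.09 ± 0.20 (adjusted p = 0.817), and the related SLC25A13 had no probe set with its symbol. GPD1L, a relative of GPD1, had 2062, 1414 and 1409 at day 21 and 1422, 1373 and 1188 at day 0 (0.28 ± 0.25, adjusted p = 0.524).

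GAPDH, the glycolytic enzyme that makes the cytosolic NADH, is named after its values were seen. Its 4 tested probe sets differed in the size of the change and in passing the test. All 4 were higher at day 21 with no overlap with day 0, as 29.1% of all tested probe sets had in either direction. The brightest differed by 0.36 ± 0.13 at day 21 (adjusted p = 0.0855) and a second by 0.42 ± 0.13 (adjusted p = 0.0518). The other 2 were 1.19 ± 0.27 and 1.83 ± 0.30 higher (adjusted p = 0.0149 and 0.00322).

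The count of linked genes called at day 21 moved between 4 and 9 over the alternatives. It was 9 on the spike scale, with 4 higher and 5 lower, where 397 of 14399 probe sets were higher and 2484 lower. Without day 0 replicate 3 it was 8, all higher. There GAPDH and 2 genes named after their values were seen, GPT and COQ9, joined the 5. UCP3, PC, TPI1 and LDHA were called as higher under all 24 alternatives.

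**Figure D4:**
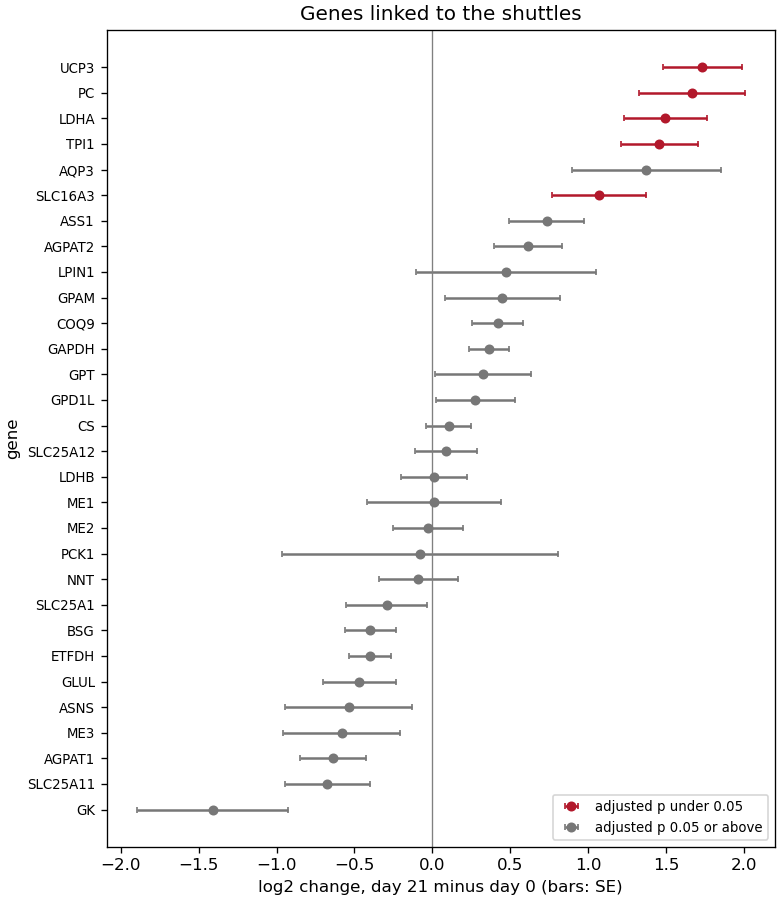
Log2 difference between day 21 and day 0 for the 30 tested genes linked to the shuttles, from limma over 12 arrays. Bars are the SE. The 5 genes that passed the adjusted test lie above 0, from SLC16A3 at 1.07 to UCP3 at 1.73, and no gene below 0 passed.

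Muscle markers were bright at all ages. Of 8 muscle genes, 6 had a probe set with their symbol. These 6 summed to 226545 to 272185 at day 21 and 180016 to 235869 at day 0, and 0 of 6 passed the test at day 21. The summed fibre markers were higher at day 21 than at day 0, as were GPD1 and GPD2. Of 11 fast-fibre genes, 6 had a probe set with their symbol, and MYH1, MYH4, ACTN3, CASQ1 and PVALB had none. Of these 6, all tested, 2 rose by day 21, none fell and 4 did not pass. Over all tested probe sets, 6.61% were higher and 4.9% lower. The sum of the 6 fast-fibre genes was 234715 to 312575 at day 21 and 148775 to 213119 at day 0. MYH2, the myosin of fast oxidative fibres, was 2.74 ± 0.28 higher (adjusted p = 0.000482). Of 9 slow-fibre genes 7 rose and 1 fell, with a sum of 208056 to 249356 at day 21 and 101772 to 161751 at day 0. MYH7, the slow myosin, was 0.76 ± 0.19 higher (adjusted p = 0.0228). The part of fibre type in the GPD1 and GPD2 values was not tested.

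Fat cells also express GPD1, so their markers were examined. Of 14 adipocyte genes, 11 had a probe set with their symbol and 9 were tested. Of these 9, 0 passed at day 7, 1 was higher at day 14 and 0 passed at day 21. Over all tested probe sets, 9.4%, 12.3% and 11.5% passed in either direction at these ages. The adipocyte markers summed to 12135 to 14935 at day 0 and 10783 to 15821 at day 7. The sums were 15331 to 22369 at day 14 and 12399 to 14627 at day 21, so day 14 alone lay above day 0. The gene called at day 14 was DGAT2, a triglyceride synthesis enzyme (2.08 ± 0.52, adjusted p = 0.0212). FABP4, the fatty acid carrier of fat cells, had 3592 ± 396 at day 21 and 3092 ± 846 at day 0 (SD, n = 3 each), LEP differed by -0.12, and ADIPOQ was too dim to test, with 51.0 to 197.0 at day 21 and 19.0 to 60.1 at day 0. PLIN1 had no probe set with its symbol. At day 21 DGAT2 differed by 0.96 ± 0.52 (adjusted p = 0.253) and PPARG by 0.87 ± 0.50 (adjusted p = 0.284). CFD differed by 0.25 ± 0.17 (adjusted p = 0.384) and SCD by -0.97 ± 0.41 (adjusted p = 0.146). Each had no overlap between the ages, as did 29.1% of all tested probe sets. DGAT2, PPARG, CFD and SCD are named after their values were seen. The part of fat cells in the GPD1 values was not tested.

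Of 7 endothelial genes, 3 were higher and 1 lower at day 7, and 4 were higher and none lower at day 14. At day 21, 2 were higher and 1 lower. Over all tested probe sets, 5.76%, 6.74% and 6.61% were higher and 3.64%, 5.6% and 4.9% lower at these ages. Endothelial markers summed to 4735 to 5745 at day 0, 8096 to 8927 at day 7, 7871 to 8378 at day 14 and 5731 to 8506 at day 21, so days 7 and 14 lay wholly above day 0. Of 7 macrophage genes, 5 had a probe set with their symbol, and 1 of these was higher and none lower at each of the 3 later ages. Of 5 erythroid genes, only 2 had a probe set with their symbol. Of these 2, 1 was lower at days 7 and 14, and at day 21 1 was higher and 1 lower. Of 3 liver genes 1 was higher at day 7 and none passed at days 14 and 21, with ALB, TTR and APOB too dim to test. Their part in the shuttle values was not tested.

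The genes whose log2 signals followed GPD1 most closely over the 12 arrays, of 5295 compared, were PYGM (muscle glycogen phosphorylase, r = 0.986), LDHA (r = 0.982), PGM1 (phosphoglucomutase, r = 0.981), EGF (epidermal growth factor, r = 0.979) and GAMT (a creatine synthesis enzyme, r = 0.977). Over the 9 later arrays alone these values were 0.700, 0.566, 0.688, 0.652 and 0.706, so the step between day 0 and the later ages carried much of the likeness. PYGM had a mean of 46865 ± 4559 at day 21 and 18375 ± 8462 at day 0 (SD, n = 3 each). All arrays share the scaling, and these values are descriptions.

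The closest to GPD2 were ZNF32 (r = 0.937), PPP1R1A (0.923) and MID1IP1 (0.909). MDH1 was followed by LOC100525869 (0.939), ATP5L (0.919) and NDUFC2 (0.919), GOT1 by LOC100524873 (0.942), ATP5G1 (0.907) and SDHA (0.902). For MDH2 they were ATP5G1 (0.871), MRPL30 (0.871) and PDHB (0.865), and for GOT2 they were ATP5D (0.864), IMMT (0.855) and GOT1 (0.849). ATP5L, ATP5G1 and ATP5D encode ATP synthase subunits, NDUFC2 a subunit of complex I, SDHA a subunit of succinate dehydrogenase and PDHB a subunit of pyruvate dehydrogenase.

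Among the members, the strongest correlations over the 12 arrays were GOT1 with GOT2 (r = 0.849, and 0.727 over the 9 later arrays), GPD1 with GPD2 (0.834 and 0.582), MDH2 with GOT2 (0.803 and 0.651), MDH2 with GOT1 (0.797 and 0.516) and MDH1 with GOT1 (0.774 and 0.773). GPD1 and MDH1 correlated at -0.157 over all arrays and at 0.648 over the later ones.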

How the data were processed

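The deposited values are MAS5 signal intensities, a linear measure of probe-set brightness; MAS5 is named in the submitters' processing notes without a version, and the RNA input was 6 ug per the labels. Every array had the same trimmed mean (2% cut at each end), and log2 was taken here. The array names no genome build, and sequences and positions are not given.

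The 124 control probe sets among 24123 were set aside, and the 40% of the rest with the lowest mean log2 signal (limit 90.3) were not tested, which left 14399. A single symbol was given to 10099 probe sets, several to 198 and none to 13826. limma 3.58.1 in R 4.3.3 fitted age means over all 12 arrays with a variance trend, and p-values were adjusted by Benjamini-Hochberg over all 14399 probe sets at a threshold of 0.05. Ratios were tested by exact permutation. A gene with several probe sets is represented by its brightest tested one. Figures used matplotlib 3.10.9.

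The members, the linked genes and the marker lists were chosen with earlier results of these data known. Named genes are all members, linked genes called at day 21, SLC25A11, SLC25A12, SLC25A13, GPD1L, LDHA and LDHB, the 5 genes most like GPD1 and the 3 most like each other member, and a few defining markers; others are said to be chosen after their values were seen. On data simulated for day 21 against day 0 over 14399 probe sets, 37 of 100 changes of 2-fold and 90 of 100 of 4-fold were recovered with 7 false calls. Changes of 2-fold could thus often be missed, and other numbers of arrays were not simulated. No 2 arrays held identical values. Same-numbered replicates of different ages did not deviate together (r = -0.198 to 0.112 over 18 pairs). With 3 arrays per age this cannot exclude pairing, and the samples were treated as unpaired.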

Additional observations from a re-analysis of the deposited data

How the results depend on the processing

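Alternatives changed the filter, the scaling, the variance model, the probe-set rule, the covariates and the arrays used. The number of members called at day 7 was 0 with the stricter filter (limit 248.9, which removed GPD2), with the poly-A covariate, with the mean of probe sets and with only the arrays compared, and 0 to 1 with an array left out. At day 14 it was 0 with the stricter filter, with the poly-A covariate and with only the arrays compared, 2 with quantile normalization, and 0 to 1 with an array left out. On the spike scale the number stayed 1 at days 7 and 14, but the member called was MDH1, as lower, and GPD2 was not called. At day 21 it was 0 with the stricter filter and 2 on the spike scale (GPD2 higher, MDH1 lower), and stayed 1 whichever array was left out. The difference in the MDH ratio ranged from -0.29 to -0.19 and that in the GOT ratio from -0.15 to 0.29 with an array left out. The count of linked genes was 9 on the spike scale, where 397 of 14399 probe sets were higher and 2484 lower. It was 4 to 8 with an array left out. Without day 0 replicate 3 the GPD1 differences moved to 3.10, 3.12 and 3.56 at days 7, 14 and 21, and with the poly-A covariate they were 1.79, 1.87 and 2.45. Among days 7, 14 and 21, MDH1, MDH2, GOT1 and GOT2 were not called under the 24 alternatives, nor GPD2 under the 23 that kept it; GPD1 was not tested. The replicate number as a block left the MDH ratio at -0.23 with an exact p of 0.25, the smallest it allows, and changed no member count. Where a cause of such a shift is not given by the alternative itself, it was not tested.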

Other observations

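AQP3 and GK, linked genes of glycerol handling named after their values were seen, differed between day 7 and day 0. AQP3, a water and glycerol channel, had signals of 1215, 985.9 and 602.9 at day 7 and 296.9, 77.3 and 81.4 at day 0, with a log2 difference of 2.86 ± 0.48 (SE, limma adjusted p = 0.00421). The groups did not overlap, as for 28.5% of all tested probe sets. The AQP3 call was lost with the poly-A ratio as a covariate (2.28, adjusted p = 0.0844) and held under the other 22 alternatives run for it. By day 21 the AQP3 signals were 272.7, 250.2 and 477.2, and the difference from day 0 was 1.37 ± 0.48 (adjusted p = 0.0785).

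GK, the glycerol kinase that makes glycerol 3-phosphate from glycerol, had signals of 64.0, 103.3 and 142.5 at day 7 and 294.0, 304.5 and 350.1 at day 0. It was lower at day 7 by a log2 difference of -1.69 ± 0.49 (SE, adjusted p = 0.0461), close to the threshold, and 13 of 22 alternatives lost the call (adjusted p 0.0284 to 0.207 over all of them). At day 21 the difference was -1.41 ± 0.49 (adjusted p = 0.0762), with no overlap between the ages, as for 29.1% of all tested probe sets.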
